A study of Rattus norvegicus with 11 samples.

Results

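The comparison concerned the corpora quadrigemina (inferior and superior colliculi, IC + SC) of 7 male rats, 3 of the audiogenic seizure-prone Krushinsky-Molodkina (KM) strain and 4 of the “0” strain, taken by their titles from the 11 rats of the series. Of the 32883 genes counted, the 13686 genes with a mean of at least 1 CPM (read counts scaled to library size with the TMM method of edgeR) over these 7 rats were tested. KM rats are an inbred strain selected from Wistar rats for tonic convulsions in response to a loud sound, and the labels give their strain as Wistar and their genotype as prone to audiogenic epilepsy (AE). The “0” rats descend from hybrids of KM and Wistar rats and have been bred for the absence of AE, and the labels give them as Wistar rats less prone to AE. The animals were 4 months old, and tissue was taken 4 days after a sound test that both strains received. At 3 months of age KM rats had been exposed to the sound on 1 occasion and “0” rats on 3 occasions, so the number of earlier exposures cannot be told apart from the strain. Seizures occur in some animals of the “0” strain, the selection of which continues. Per the study's methods, the “0” rats used here were chosen as not prone to AE, while tonic convulsions of maximum intensity were recorded for KM rats. Having had seizures in the sound tests, the last of them 4 days before tissue was taken, therefore cannot be told apart from the strain either. Each strain is 1 line, so proneness to seizures cannot be told apart from other differences between the lines.

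In audiogenic seizures a strong sound sets off wild running that can pass into clonic and tonic convulsions. The IC, the auditory midbrain, is where such a seizure starts, and the SC, which directs orienting movements, takes part in the running. Both hold excitatory glutamatergic and inhibitory GABAergic neurons together with glia and vessels, and neighbouring structures (the periaqueductal grey, the pineal gland, the choroid plexus and the overlying cortex) lie close to the piece that is dissected.

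Reads counted on genes numbered 11730889, 11552974 and 15140180 in KM 1, KM 2 and KM 3, and 12992512, 10545964, 11142437 and 13623132 in “0” 1, “0” 2, “0” 3 and “0” 4. Below, values of single rats are always given in this order. At this depth 3 counts, taken as the smallest amount that could be shown, correspond to 0.177 to 0.333 CPM, a floor that covers counting error only. Several libraries stood apart. The 10 most abundant genes held 16.4, 15.6 and 7.94% of the reads in KM and 15.8, 17.7, 29.2 and 7.95% in “0” rats, so “0” 3 was the highest and KM 3 and “0” 4 were low. Most choroid plexus markers were highest in KM 3, and 5 of 7 forebrain neuron markers were far higher in KM 1 than in the other rats, as described below with their values. The labelled tissue could not be checked against its own markers, since of the 20 listed markers of the colliculi the symbols used here cover only Pou4f1. This transcription factor of midbrain neurons is also in the list of thalamus and habenula markers, so it does not mark the colliculi alone. Pou4f1 had 0.0831, 0.172 and 1.18 CPM in KM and 0.238, 1.73, 1.88 and 2.096 CPM in “0” rats. In bulk tissue fewer cells of a type and less RNA per cell cannot be told apart, and this holds for each difference given here.

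Genes with an unadjusted p under 0.05 in the quasi-likelihood F-test of edgeR (QLF test) were counted as DEGs, as the authors did. They made up 3.65% of the genes tested, fewer than the 5% that such a threshold passes when no gene differs. Higher in KM rats were 324 genes (2.37% of those tested) and lower were 176 genes (1.29%). The KM values lay above all “0” values in 315 genes (2.30%) and below all of them in 316 genes (2.31%), and of the DEGs 180 of those higher and 131 of those lower were separated in this way. In simulated counts, described below, 5.83% of the genes left unchanged were separated in either direction. Separation by itself, here and below, therefore does not mark a difference between the strains. The median log2-fold change was 0.77 among the higher and −0.62 among the lower DEGs, against 0.01 over all genes tested. A change of more than 1 on the log2 scale was seen for 108 of the higher and 35 of the lower DEGs. Single rats weighed on these counts: without KM 3 there were 613 higher and 308 lower DEGs, without KM 1 there were 198 and 97, without “0” 3 there were 190 and 90, without KM 2 there were 298 and 95, and without “0” 1 there were 332 and 331. Of the 324 higher DEGs 175 had their highest value in KM 1, 108 in KM 3 and 41 in KM 2. Kept in every one of the 7 fits that left out a rat were 66 higher and 40 lower DEGs.

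**Figure D1:**
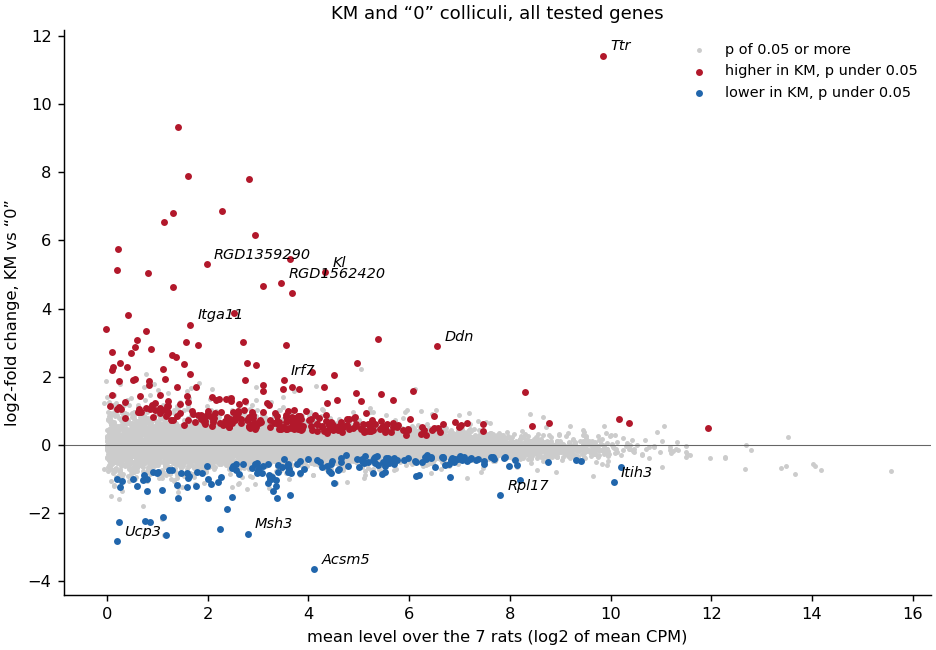
Each point is one of the 13686 genes tested, with the mean level over the 7 rats on the horizontal axis (log2 of CPM) and the log2-fold change of KM vs “0” on the vertical axis, and red and blue points are the 324 higher and 176 lower DEGs. Most genes lie near 0, and Ttr, at 11.41, lies highest.

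Symbols were available for 1744 of the tested genes, from the table in which the authors list genes that differed on these samples. Of these named genes 280 (16.1%) were DEGs higher and 170 (9.75%) DEGs lower in KM rats, and the remaining 50 DEGs carry an identifier alone. The named share is high because of how the table was made, so a count of DEGs in any group of named genes is not independent evidence and has to be read against these percentages. The median log2-fold change of the named genes was 0.01. Below, a number with ± after a gene in parentheses is its log2-fold change of KM vs “0” with the SE of the QLF fit, and other p values are unadjusted.

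Several genes higher in KM rats were nearly silent in “0” rats. RGD1562420 (ENSRNOG00000005826), a predicted protein with no role assigned here, had 17.04, 27.9 and 28.3 CPM in KM and 0.951, 0.964, 1.55 and 0.328 CPM in “0” rats, and the lowest KM rat was far above the highest “0” rat. Its log2-fold change of 4.74 was 1 of 2 with an adjusted p under 0.05 (Benjamini-Hochberg over all genes, edgeR adjusted p = 0.0112), the other being Acsm5, given below. No gene had an adjusted p under 0.05 without KM 2, without “0” 2, or with the share of reads in the 10 most abundant genes as a covariate. The smallest adjusted p among the other genes was 0.116, and single-gene results below therefore rest on unadjusted p values. RGD1359290 (ENSRNOG00000027271), named for a ribosomal L22 domain, had 10.6, 10.2 and 5.897 CPM in KM and 0.555, 0, 0.333 and 0 CPM in “0” rats, a log2-fold change of 5.31 (SE 0.73, unadjusted p = 4.26e-05). It was at 0 in “0” 2 and “0” 4, so the exact size of its change is uncertain. Vom2r44 (ENSRNOG00000010268), a gene of the vomeronasal pheromone receptor family, was counted at 71, 55 and 20 counts in KM and 0, 2, 2 and 1 counts in “0” rats. It was lowest among KM rats in KM 3, which still stood above every “0” rat, and the log2-fold change was 5.05 (SE 0.78, unadjusted p = 0.00011). Every “0” rat was under the floor of 3 counts, so the exact size of this change cannot be given. AABR07053166.1 (ENSRNOG00000029262) had 48, 36 and 12 counts in KM and 3, 0, 0 and 0 counts in “0” rats. The ratio of summed counts, scaled to library sizes with their TMM factors, was 37.3 with a counting interval of 12.4 to 184 (exact binomial, 95%). Without KM 1 or KM 2 the gene was not tested because its mean fell under 1 CPM. Vomeronasal receptor genes form a large family of close copies and the counts do not show which copy a read came from.

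Other genes higher in all KM rats had known products. Itga11 (ENSRNOG00000006723), the alpha 11 subunit of a collagen-binding integrin, had 9.97, 7.499 and 2.36 CPM in KM and 0.951, 0.289, 0.443 and 0.524 CPM in “0” rats and a log2-fold change of 3.52 (SE 0.55, unadjusted p = 0.000123). Igfbp4 (ENSRNOG00000010635), a secreted protein that binds insulin-like growth factors, had 21.6, 4.999 and 11.7 CPM in KM and 2.06, 2.51, 2.66 and 2.36 CPM in “0” rats and a log2-fold change of 2.41 (SE 0.43, unadjusted p = 0.000321). The “0” values of Igfbp4 lay close together, while KM 1 was several times KM 2. These belong to the 15 genes with the smallest p among the separated higher ones, and the other 9 (Ttr, Lmx1a, Nr4a2, Irf7, Oas2, Usp18, Ifit3, Sox8 and RT1-T24-3) are described with their groups. All but AABR07053166.1 of the 15 kept p under 0.05 in each fit that left out a rat.

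Among the genes lower in KM rats, Acsm5 (ENSRNOG00000031211), a mitochondrial enzyme that activates medium-chain fatty acids, had 2.33, 1.29 and 3.13 CPM in KM and 16.4, 29.00, 31.04 and 37.9 CPM in “0” rats. The highest KM rat was far below the lowest “0” rat, with a log2-fold change of −3.64 (edgeR adjusted p = 0.0317). Msh3 (ENSRNOG00000013673), which recognises small DNA loops in mismatch repair, had 2.91, 1.72 and 0.767 CPM in KM and 12.2, 11.2, 11.1 and 8.65 CPM in “0” rats, a log2-fold change of −2.60 (SE 0.40, unadjusted p = 0.000112). The “0” rats lay close together, and all KM rats were far below them. Ucp3 (ENSRNOG00000017716), a mitochondrial carrier best known from muscle, had 4, 2 and 4 counts in KM and 21, 21, 16 and 27 counts in “0” rats and a log2-fold change of −2.82 (SE 0.39, unadjusted p = 4.21e-05). Its level was at or near the floor in KM rats, and without “0” 2 or “0” 4 it was not tested because its mean fell under 1 CPM. Cyp4x1, a cytochrome P450 of brain, had 2.08, 1.12 and 0.826 CPM in KM and 4.44, 6.46, 7.43 and 10.8 CPM in “0” rats and a log2-fold change of −2.45 (SE 0.43, unadjusted p = 0.000263). Htra4, a serine protease, followed with −2.23, and Rdh5, a retinol dehydrogenase, with −1.89. The other lower genes of this selection were Mgmt, Tmprss9 (−1.55 ± 0.34), Krt2 (−1.53 ± 0.31), Sult1a1, Ghdc (−1.35 ± 0.24), Zfp488, Tmem44 (−1.11 ± 0.16), LOC691921 (−1.10 ± 0.24) and Mfge8, the log2-fold changes of which ranged from −1.56 to −1.04. Tmem44, a transmembrane protein, had 16.04, 12.8 and 12.5 CPM in KM and 28.1, 30.2, 32.4 and 27.8 CPM in “0” rats (unadjusted p = 7.33e-05), with little spread within either strain. Of the 15 lower genes 14 kept p under 0.05 without any single rat, with Ucp3 as the exception.

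**Figure D2:**
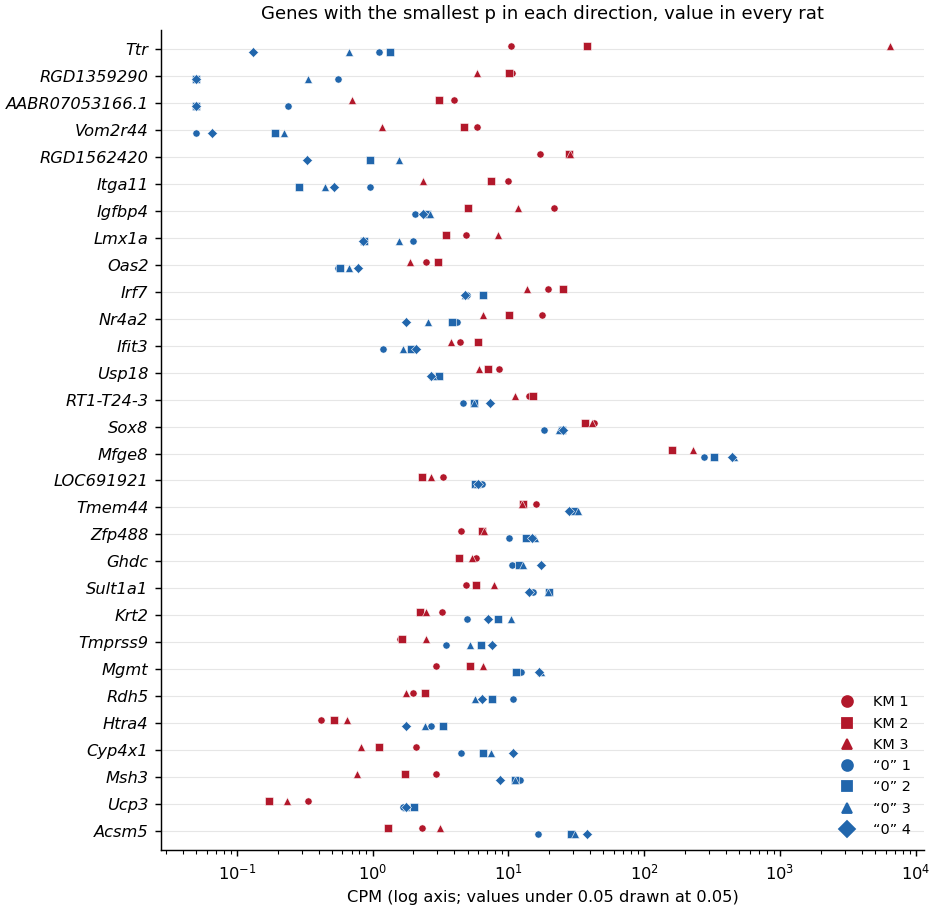
CPM of each rat (log axis) for the 15 genes in either direction with a symbol, no overlap between the strains and the smallest p, ordered by log2-fold change, with KM rats in red and “0” rats in blue and one symbol shape per rat. In every line the red points lie to 1 side of the blue points, and for Ttr the point of KM 3 at 6409 CPM stands far from KM 1 and KM 2.

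With all 7 rats, the type I interferon response held the largest number of DEGs of 1 direction among the gene lists examined, though not the largest share. Without KM 2 it held 11 higher DEGs and the choroid plexus list 16. Type I interferons signal through a receptor to a transcription factor complex that holds IRF9 and switches on antiviral genes by binding a response element in their promoters, and IRF7 in turn drives more interferon. Of the 37 list members that were named and tested, 21 were higher DEGs, none was a lower DEG and 16 did not pass. The median log2-fold change of the 37 was 0.55, and 34 of them had a positive value. Summed over the list, the level was 628, 689.7 and 682 CPM in KM and 463, 505, 527 and 475 CPM in “0” rats, so the lowest KM rat was above the highest “0” rat. Ifi27, a small mitochondrial interferon-inducible protein and the most abundant member, had 117, 152 and 143 CPM in KM and 101, 98.4, 127 and 129 CPM in “0” rats and was not a DEG (log2-fold change 0.27, SE 0.16, unadjusted p = 0.131).

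Among its transcription factors, those given here differed in size. Irf7 (ENSRNOG00000017414), the factor that amplifies the response, had 19.5, 25.3 and 13.7 CPM in KM and 4.91, 6.46, 4.77 and 4.78 CPM in “0” rats and a log2-fold change of 1.90 (SE 0.25, unadjusted p = 2.63e-05). Stat2 had 61.1, 54.05 and 50.9 CPM in KM and 43.8, 36.9, 38.1 and 35.6 CPM in “0” rats, a smaller difference of 0.52 (SE 0.14, unadjusted p = 0.00529) that kept the strains apart. Irf9 had a log2-fold change of 0.51 (SE 0.22, unadjusted p = 0.0448) with overlapping strains.

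Of the antiviral effectors, Oas2 (ENSRNOG00000049282), an enzyme that makes the 2-5A signal for RNA decay, had 2.49, 3.02 and 1.89 CPM in KM and 0.555, 0.578, 0.665 and 0.786 CPM in “0” rats and a log2-fold change of 1.90 (SE 0.33, unadjusted p = 0.000273). Ifit3, which binds foreign RNA together with its relatives, had 4.405, 5.95 and 3.77 CPM in KM and 1.19, 1.93, 1.66 and 2.096 CPM in “0” rats and a log2-fold change of 1.44 (SE 0.30, unadjusted p = 0.00101). Helz2, a helicase and coactivator, had 10.5, 6.46 and 6.55 CPM in KM and 2.69, 3.37, 2.11 and 4.13 CPM in “0” rats and a log2-fold change of 1.33 (SE 0.30, unadjusted p = 0.00168). In each of these 3 genes all KM rats lay above all “0” rats. Usp18 (ENSRNOG00000037198), a protease that removes ISG15 and restrains the interferon receptor, had 8.48, 7.07 and 6.07 CPM in KM and 2.69, 3.08, 2.77 and 2.69 CPM in “0” rats, a log2-fold change of 1.36 (SE 0.23, unadjusted p = 0.000216), and the “0” rats lay between 2.69 and 3.08 CPM. The remaining DEGs of the list were Lgals3bp (1.30 ± 0.41), Apol9a (1.18 ± 0.46), Herc6 (1.01 ± 0.32), Rtp4 (1.01 ± 0.34), Oas1a (0.94 ± 0.30), Mx2 (0.89 ± 0.27), Bst2 (0.85 ± 0.29), Parp9 (0.75 ± 0.23), Rsad2 (0.73 ± 0.26), Slfn5 (0.72 ± 0.23), Oas1k (0.65 ± 0.25), Irgm (0.59 ± 0.24), Slfn2 (0.55 ± 0.23) and Dhx58 (0.52 ± 0.21). Lgals3bp, a secreted glycoprotein, was highest in KM 3 (23.1, 34.8 and 92.2 CPM in KM and 14.7, 21.6, 22.7 and 22.5 CPM in “0” rats) and was not a DEG without that rat. The oligoadenylate synthetase and schlafen genes have close copies, so reads may have been divided among them. Helz2, Ifit3, Irf7, Oas2, Parp9, Slfn5, Stat2 and Usp18 were DEGs without any single rat. The number of interferon DEGs higher in KM rats was 18, 11 and 16 without KM 1, KM 2 and KM 3, and 16, 21, 17 and 20 without “0” 1, “0” 2, “0” 3 and “0” 4.

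**Figure D3:**
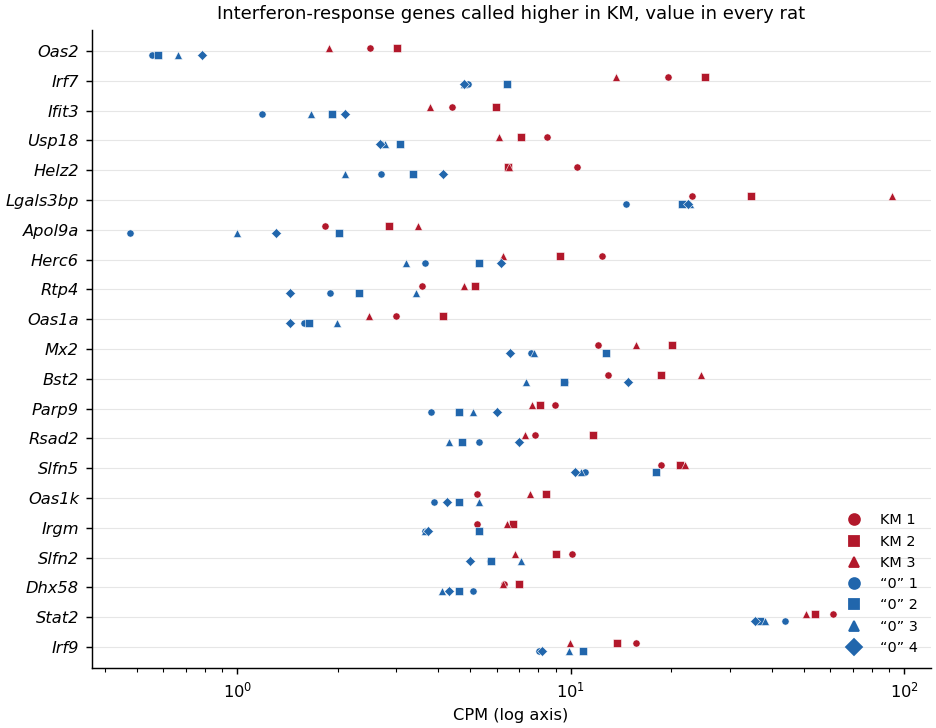
CPM of each rat (log axis) for the 21 interferon-response genes that were DEGs, ordered by log2-fold change, with KM rats in red and “0” rats in blue and one symbol shape per rat. The strains are apart for Oas2, Irf7, Ifit3, Usp18 and Helz2 at the top, and they touch or overlap for genes such as Irf9 and Slfn2 near the bottom.

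To show the promoters behind these counts, the 250 bases before the start of each gene were read from RefSeq (build GRCr8, matched by symbol) for 29 of the 37 genes. They were searched on both strands for the letters GAAA followed by any 2 bases and GAAA again, the core of the interferon-stimulated response element. The letters were present in 8 of the 15 promoters of DEGs and in 7 of the 14 promoters of list members that were not DEGs, against 3.41% of all 33469 promoters of that length and 3.91% of the promoters of tested genes with a symbol. The promoters of 4 DEGs are printed 5′ to 3′ along the gene, ending at the base before the start, with the matches in capitals.
Irf7 (chr1:205800024-205800273, minus strand): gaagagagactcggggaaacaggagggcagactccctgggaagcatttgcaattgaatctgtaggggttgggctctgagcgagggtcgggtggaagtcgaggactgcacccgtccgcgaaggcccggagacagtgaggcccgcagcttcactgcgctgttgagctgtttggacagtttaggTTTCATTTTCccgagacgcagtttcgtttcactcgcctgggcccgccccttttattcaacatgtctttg
Ifit3 (chr1:241527076-241527325, plus strand): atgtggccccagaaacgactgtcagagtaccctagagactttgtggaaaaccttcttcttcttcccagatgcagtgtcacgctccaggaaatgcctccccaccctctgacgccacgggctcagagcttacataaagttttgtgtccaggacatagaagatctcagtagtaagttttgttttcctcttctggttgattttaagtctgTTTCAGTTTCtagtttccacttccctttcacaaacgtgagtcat
Oas1a (chr12:41330216-41330465, plus strand): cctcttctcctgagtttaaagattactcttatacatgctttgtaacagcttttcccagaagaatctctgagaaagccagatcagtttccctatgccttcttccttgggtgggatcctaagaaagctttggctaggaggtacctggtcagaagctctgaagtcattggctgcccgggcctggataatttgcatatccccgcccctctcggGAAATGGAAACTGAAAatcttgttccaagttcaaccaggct
Bst2 (chr16:18254968-18255217, minus strand): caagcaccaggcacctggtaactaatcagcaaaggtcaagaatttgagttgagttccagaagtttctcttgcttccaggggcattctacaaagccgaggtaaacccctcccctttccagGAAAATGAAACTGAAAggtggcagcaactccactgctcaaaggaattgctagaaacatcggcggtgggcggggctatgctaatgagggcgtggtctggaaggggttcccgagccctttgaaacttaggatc
In Irf7 and Ifit3 the letters run on the strand opposite to the gene, 59 and 34 bases before the start. Oas1a and Bst2 hold a pair of overlapping matches on the strand of the gene, and the nearer match ends 25 bases before the start in Oas1a and 115 bases before it in Bst2. A match is a description of these letters and not a site shown to be bound. Promoters of Stat2, Irf9, Parp9, Herc6, Helz2, Slfn2 and Slfn5 held no such letters in this window, and those of Oas2, Usp18, Mx2, Oas1k, Rtp4 and Dhx58 were not in the table.

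Related genes of innate immunity were few among the symbols. Tlr3 (ENSRNOG00000021726), the endosomal sensor of double-stranded RNA, had 8.31, 8.62 and 10.3 CPM in KM and 3.88, 5.300, 4.77 and 2.03 CPM in “0” rats and a log2-fold change of 1.20 (SE 0.32, unadjusted p = 0.00427) with no overlap, and Ifngr2, a chain of the type II receptor, had a log2-fold change of −0.20 (unadjusted p = 0.34). Of 12 MHC and antigen presentation genes 4 were higher and none lower DEGs, with a list median of 0.22. RT1-T24-3 (ENSRNOG00000045924), a nonclassical class I gene, had 14.2, 15.1 and 11.1 CPM in KM and 4.597, 5.59, 5.54 and 7.27 CPM in “0” rats and a log2-fold change of 1.22 (SE 0.22, unadjusted p = 0.000357). The others were RT1-T24-1 (0.85 ± 0.36), RT1-T24-4 (0.74 ± 0.30) and the class I-like gene AABR07044364.1 (1.29 ± 0.38). The classical class I gene RT1-A1, the most abundant of the list, had 91.5, 105 and 107 CPM in KM and 83.5, 93.9, 105 and 107 CPM in “0” rats, and the strains overlapped (log2-fold change 0.06, SE 0.14, unadjusted p = 0.694). RT1 genes are near-identical copies that differ between rat strains, so which copy a read came from is uncertain. The MHC count was 2 without KM 1, KM 2 or “0” 1.

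C4b, a complement component that tags surfaces for clearance, had 8.23, 7.67 and 4.54 CPM in KM and 2.46, 4.24, 2.55 and 1.77 CPM in “0” rats and a log2-fold change of 1.31 (SE 0.35, unadjusted p = 0.00444), while C1qc of the C1 complex had a log2-fold change of −0.32 (unadjusted p = 0.12). C7, a component of the membrane attack complex, had a log2-fold change of 1.16 (SE 0.52, unadjusted p = 0.052), just short of the threshold, and the strains overlapped. The higher complement DEGs were 2 without KM 1 or “0” 2. Of 10 microglia and macrophage markers 2 were higher and 2 lower DEGs. Ctss, a lysosomal protease and the most abundant of them, was lower with 144, 147 and 132 CPM in KM and 179, 175, 232 and 244 CPM in “0” rats (log2-fold change −0.56, SE 0.17, unadjusted p = 0.00832). Cd4 was also lower (−0.71 ± 0.27), and Cd86, a costimulatory protein, and the lysozyme Lyz2 were higher (1.06 ± 0.43 and 0.87 ± 0.38). The summed marker level was 249, 233 and 224 CPM in KM and 244, 256, 321 and 324 CPM in “0” rats. In this sum “0” 3 and “0” 4 were the highest, and no KM rat was above them. Without KM 1 or “0” 1 neither Cd86 nor Lyz2 was a DEG, and Cd4 was not one without KM 3 or “0” 3.

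Markers of the choroid plexus, the epithelium that makes cerebrospinal fluid, held the largest log2-fold change of all genes tested, that of Ttr, and nearly all were highest in KM 3. Of 17 named markers 14 were DEGs higher in KM rats and 1, Cldn9, was lower (−0.83 ± 0.30), and 16 of the 17 had their highest value in KM 3. The 14 became 5 with the DESeq2 Wald test, where a gene that got no p was counted as not a DEG. They also became 5 with the share of reads in the 10 most abundant genes as a covariate. Cldn9 was not a DEG without KM 2 or “0” 4. The summed level was 422, 440.4 and 8886 CPM in KM and 306, 365, 381 and 389 CPM in “0” rats. Ttr (ENSRNOG00000016275), the carrier of thyroid hormone and retinol-binding protein, had 10.4, 37.8 and 6409 CPM in KM and 1.11, 1.35, 0.665 and 0.131 CPM in “0” rats, a log2-fold change of 11.41 (SE 2.30, unadjusted p = 0.000732). By its mean it was the most abundant marker, but only through KM 3, and in every other rat Enpp2, given below, was higher. KM 1 and KM 2 also lay above all “0” rats, and without KM 3 the log2-fold change of Ttr was 4.93 (unadjusted p = 5.01e-05). Kl, the klotho protein, had 2.83, 3.19 and 129.7 CPM in KM and 1.51, 1.35, 1.22 and 1.31 CPM in “0” rats and a log2-fold change of 5.06, or 1.16 (unadjusted p = 0.00581) without KM 3. Tmem72 had 3.91, 1.98 and 51.1 CPM in KM and 0.396, 0.674, 0.776 and 1.11 CPM in “0” rats, and Kcne2, a potassium channel subunit of this epithelium, had 3.41, 3.19 and 32.4 CPM in KM and 1.902, 1.45, 1.11 and 1.900 CPM in “0” rats. Without KM 3 their log2-fold changes were 1.98 (unadjusted p = 0.00239) and 1.05 (unadjusted p = 0.0152).

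The water channel Aqp1 (1.496, 2.59 and 79.5 CPM in KM and 1.43, 2.12, 0.443 and 1.05 CPM in “0” rats), the chloride channel protein Clic6 (8.23, 14.6 and 231 CPM in KM and 14.8, 10.6, 4.77 and 8.91 CPM in “0” rats) and the lipid enzyme Enpp2 (199.9, 206 and 1126 CPM in KM and 141, 192, 179 and 179 CPM in “0” rats) were by far highest in KM 3. Without KM 3 they were not DEGs, and neither were Slc4a5, Folr1, Col8a2, Ca12 and Stra6, which left 6 higher DEGs in the list, namely Ttr, Kl, Tmem72, Kcne2, Lmx1a and Ace. Ace, the angiotensin-converting enzyme, then had a log2-fold change of 0.47 (unadjusted p = 0.0387). Lmx1a, a transcription factor of the choroid plexus lineage and of dopaminergic neurons, had 4.904, 3.45 and 8.37 CPM in KM and 1.98, 0.867, 1.55 and 0.852 CPM in “0” rats, with 1.68 (unadjusted p = 0.00354) without KM 3. The part of dissected choroid plexus in these differences was not tested.

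**Figure D4:**
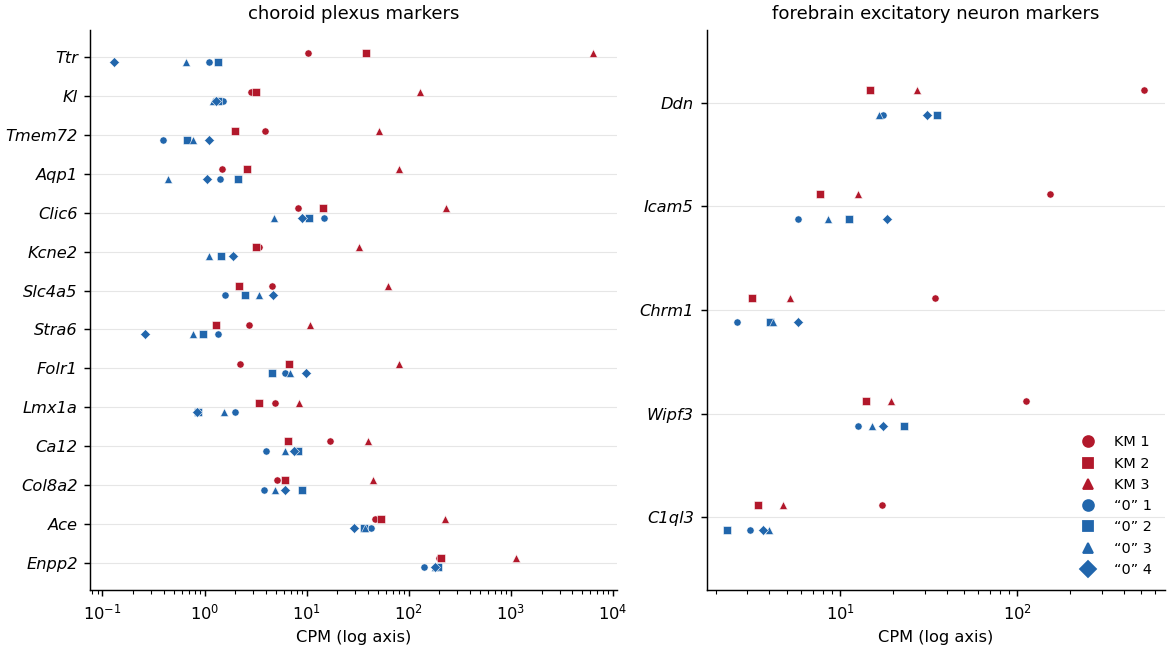
CPM of each rat (log axes) for the 14 choroid plexus markers (left) and the 5 forebrain neuron markers (right) that were DEGs higher in KM rats, with KM rats in red and “0” rats in blue and one symbol shape per rat. The red triangles of KM 3 lie far right for the choroid plexus, and the red circles of KM 1 lie far right for the forebrain genes, while the other rats of both strains lie together for most genes.

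Most markers of forebrain excitatory neurons were high in KM 1. Of 7 named markers 5 were DEGs, all higher, and in all 5 the “0” rats overlapped with KM 2 or KM 3. Ddn, a dendritic protein of cortex and hippocampus, had 518, 14.8 and 27.3 CPM in KM and 17.6, 35.4, 16.5 and 31.1 CPM in “0” rats, and its log2-fold change of 2.89 (SE 1.02, unadjusted p = 0.0196) became −0.25 (unadjusted p = 0.524) without KM 1. Icam5 (telencephalin) had 153, 7.76 and 12.6 CPM in KM and 5.79, 11.3, 8.54 and 18.3 CPM in “0” rats. Chrm1, the M1 muscarinic receptor, had 34.4, 3.19 and 5.19 CPM in KM and 2.62, 4.05, 4.21 and 5.83 CPM in “0” rats, Wipf3 had 113, 14.1 and 19.4 CPM in KM rats, and C1ql3 had 17.2, 3.45 and 4.78 CPM. None of the 5 was a DEG without KM 1, and 1 was without “0” 1, “0” 2 or “0” 3. Nrgn, the most abundant marker, had 384, 253 and 443 CPM in KM and 281, 446, 289 and 513 CPM in “0” rats and was not highest in KM 1. The part of forebrain tissue in these differences was not tested.

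Immediate early genes, which neurons switch on within minutes of activity, held 6 DEGs higher in KM rats among 13, and none of the 13 was a lower DEG. The list median was 0.49, and 10 of the 13 genes had their highest value in KM 1. In that rat 5 of the 7 forebrain neuron markers were also highest, and a part of forebrain tissue here was not tested. Nr4a2 (Nurr1), an orphan nuclear receptor also needed by dopaminergic neurons, had 17.8, 10.2 and 6.55 CPM in KM and 4.201, 3.85, 2.55 and 1.77 CPM in “0” rats with no overlap and, without KM 1, a log2-fold change of 1.43 (unadjusted p = 0.0054). Its relative Nr4a1 had 54.6, 33.1 and 11.1 CPM in KM and 12.5, 8.86, 7.21 and 11.7 CPM in “0” rats, where KM 3 lay among the “0” rats, and the log2-fold change was 1.70 (SE 0.45, unadjusted p = 0.00411). Nr4a3 (0.95 ± 0.36), Fos (0.76 ± 0.30), Gadd45g (0.75 ± 0.29) and Sik1 (0.67 ± 0.28) were the others, and each lost its call without at least 1 rat. Fos was highest in KM 2 with 17.3, 28.4 and 10.8 CPM in KM and 9.19, 12.3, 11.2 and 11.7 CPM in “0” rats. Egr1, the most abundant of the list, had 56.02, 37.5 and 21.3 CPM in KM and 37.8, 54.5, 42.02 and 35.7 CPM in “0” rats and was not a DEG. The count of 6 was 3 without KM 1, KM 2, “0” 2 or “0” 3. The brains were taken 4 days after the last sound. Handling, time of death and the seizures of KM rats in the sound tests were not analysed here.

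Among the oligodendrocyte genes more DEGs were higher than lower in KM rats. Of 19 named markers 6 were higher DEGs and 1 was lower, 17 had a positive log2-fold change, and the median was 0.40. Sox8 (ENSRNOG00000018841), a transcription factor of the lineage, had 42.6, 36.9 and 41.3 CPM in KM and 18.4, 24.8, 23.7 and 25.2 CPM in “0” rats and a log2-fold change of 0.81 (SE 0.16, unadjusted p = 0.000689). Other higher DEGs were Ugt8 (0.61 ± 0.18), which makes the galactolipid of myelin, the fatty acid elongase Elovl7 (0.84 ± 0.21), Anln (0.69 ± 0.24) and Enpp6 (0.58 ± 0.21), a marker of newly forming oligodendrocytes. In the 6 higher DEGs the strains did not overlap. Zfp488, a repressor that promotes oligodendrocyte differentiation, went the other way with 4.49, 6.38 and 6.604 CPM in KM and 10.1, 13.6, 15.6 and 14.9 CPM in “0” rats and a log2-fold change of −1.21 (SE 0.24, unadjusted p = 0.000608). The number of higher DEGs was 4 without KM 1, KM 2 or “0” 1 and 6 to 8 without any other rat, and Elovl7, Sox8, Ugt8 and Zfp488 were DEGs in every such fit.

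Astrocyte markers were divided, with 8 lower and 3 higher DEGs among 18 and a median of −0.35. Itih3 (ENSRNOG00000017689), a secreted matrix protein, had 603, 693 and 653 CPM in KM and 907, 1263, 1933 and 1456 CPM in “0” rats, a log2-fold change of −1.10 (SE 0.25, unadjusted p = 0.00155). Mfge8, a secreted bridge for the uptake of dying cells, had 161, 161 and 227 CPM in KM and 275, 325, 459.7 and 442 CPM in “0” rats and a log2-fold change of −1.04 (SE 0.23, unadjusted p = 0.00134). In both the lowest “0” rat was “0” 1, and it was still above every KM rat. The other lower DEGs were Agt (−0.65 ± 0.26), the precursor of angiotensin, the potassium channel Kcnj16 (−0.65 ± 0.28), the folate enzyme Aldh1l1 (−0.48 ± 0.18), Entpd2 (−0.49 ± 0.17), the glutamate carrier Slc25a18 (−0.41 ± 0.15) and the monoamine oxidase Maob (−0.30 ± 0.12). Higher in KM rats were S100b, a calcium-binding protein, with 1452, 1310.5 and 1759 CPM in KM and 965, 1039, 661 and 858 CPM in “0” rats (log2-fold change 0.78, SE 0.20, unadjusted p = 0.00314), Hopx (0.80 ± 0.24) and Slc15a2 (0.45 ± 0.15). The most abundant marker, Apoe, had 2927, 3584 and 3719 CPM in KM and 3854, 3846, 5118 and 5031 CPM in “0” rats and was not a DEG (log2-fold change −0.39, SE 0.20, unadjusted p = 0.0777). The list summed to 9156, 9681 and 10052 CPM in KM and 9979.9, 10453, 13587 and 13266 CPM in “0” rats, and “0” 3 and “0” 4 stood above the rest. The number of lower DEGs was 3, 3 and 5 without KM 1, KM 2 and KM 3, and 8, 6, 5 and 5 without “0” 1, “0” 2, “0” 3 and “0” 4, and Itih3, Mfge8, S100b and Hopx were DEGs in all these fits.

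**Figure D5:**
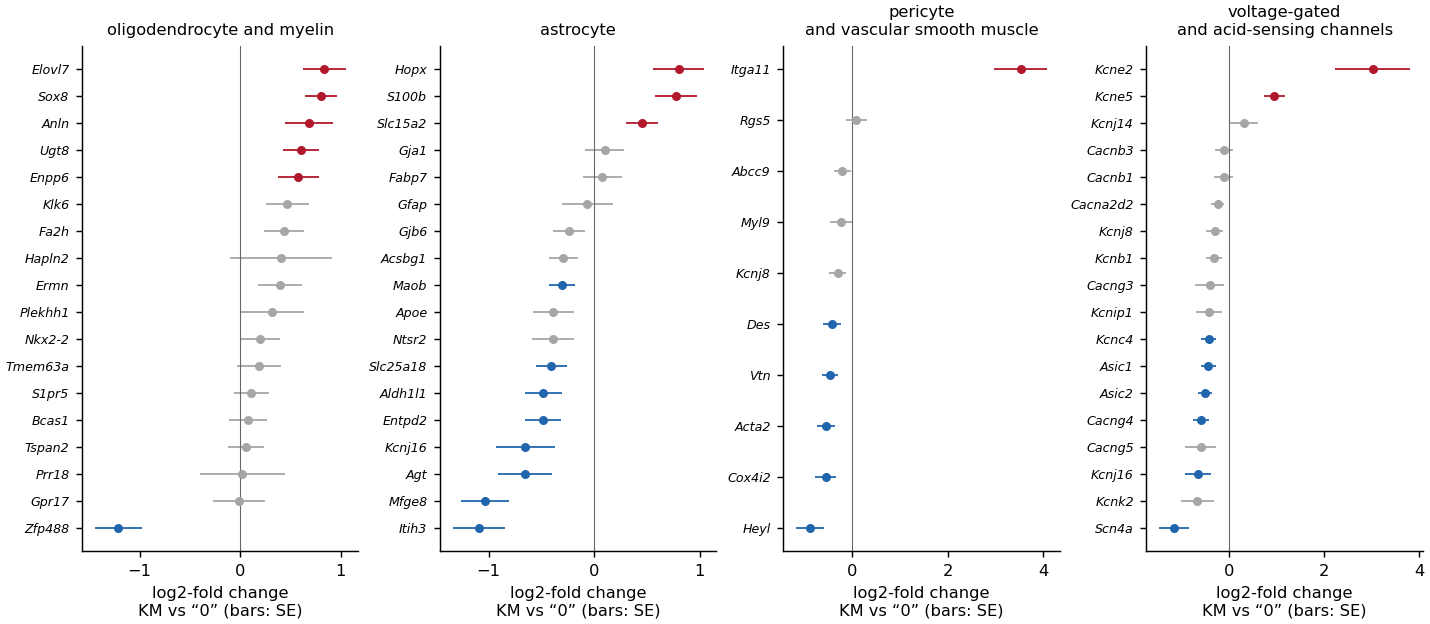
Log2-fold change of KM vs “0” (points) with its standard error (bars) for members of 4 lists, with red and blue marking DEGs higher and lower in KM rats and grey genes that were not DEGs. Most oligodendrocyte genes lie right of 0 except Zfp488 at −1.21, and most astrocyte, mural cell and channel genes lie left of 0 except S100b, Itga11 and Kcne2 among others.

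Genes of vessel cells went both ways. Of 10 pericyte and smooth muscle genes 5 were lower DEGs, namely the notch target Heyl (−0.88 ± 0.30), Acta2 (−0.55 ± 0.18), Cox4i2 (−0.55 ± 0.22), Vtn (−0.46 ± 0.17) and Des (−0.42 ± 0.19), and Itga11, described above, was higher. The smooth muscle actin Acta2 had 17.2, 19.5 and 14.9 CPM in KM and 27.03, 29.6, 21.7 and 22.1 CPM in “0” rats without overlap. Each of the 5 lost its call without at least 1 rat, and their number was 2 without KM 1, 1 without KM 3, 2 without “0” 3 and 3 without “0” 4. Of 11 endothelial markers (median 0.23) 2 were DEGs, both higher, namely Adgrl4 (0.57 ± 0.21) and the scavenger receptor Stab2. Stab2 had 5.901, 4.14 and 3.66 CPM in KM and 1.82, 1.45, 1.55 and 2.69 CPM in “0” rats and a log2-fold change of 1.26 (SE 0.32, unadjusted p = 0.00333). Flt1, the most abundant, had a log2-fold change of 0.01 (unadjusted p = 0.925). Of 7 erythrocyte genes 3 were higher DEGs, namely Alas2 (0.73 ± 0.24), the first enzyme of heme synthesis in red cells, and the alpha globin Hba-a2 under a pair of identifiers that can share reads, and Klf1 was lower (−0.9995 ± 0.41). Alas2 had 56.9, 61.1 and 29.8 CPM in KM and 33.4, 27.6, 25.9 and 32.03 CPM in “0” rats, so KM 3 lay among the “0” rats, and neither Alas2 nor Hba-a2 was a DEG without KM 1 or KM 2. Of 4 meningeal genes Fbln1 was lower (−0.59 ± 0.25) and Medag higher (0.68 ± 0.29), and both lost their call without KM 1, KM 2 or “0” 3. Adgrl4 was not a DEG without KM 2, KM 3, “0” 3 or “0” 4, and Klf1 was not one without KM 1, KM 3, “0” 1, “0” 2 or “0” 3.

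Of 6 genes of the ependyma and subcommissural organ, Sspo, the giant protein secreted by that organ at the roof of the midbrain, had 0.499, 0.948 and 0.236 CPM in KM and 0.159, 2.22, 10.2 and 1.44 CPM in “0” rats. “0” 3 was far above the rest. The log2-fold change was −2.64 (SE 1.12, unadjusted p = 0.0428), and without “0” 3 the gene was not tested because its mean fell under 1 CPM. Jhy was lower (−0.99 ± 0.33) and Cfap69, a protein of cilia, higher (0.66 ± 0.29), and neither was a DEG without KM 3. Dnah11, the most abundant, had a log2-fold change of 0.35 (unadjusted p = 0.289). Of the 4 markers of thalamus and habenula Slc5a7, the choline transporter, was higher (0.80 ± 0.31) and Lef1 lower (−0.81 ± 0.32), and neither was a DEG without KM 3 or “0” 2. Prkcd, the most abundant, had 54.9, 42.5 and 24.4 CPM in KM and 42.7, 23.9, 7.32 and 9.63 CPM in “0” rats. Pomc, the 1 pituitary gene named, had 2.16, 4.48 and 31.8 CPM in KM and 3.88, 2.79, 3.88 and 5.44 CPM in “0” rats and was highest in KM 3. Markers of the cerebellum, the pineal gland, the raphe and locus coeruleus, and genes encoded by mitochondria had no symbol among the tested genes and were not analysed here.

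Voltage-gated and acid-sensing channels set how readily neurons fire. The list of this name also took in the potassium channels Kcnj8, Kcnj14, Kcnj16 and Kcnk2, which belong to neither class. Of these, Kcnj16 is also in the astrocyte list and Kcnj8 in the pericyte list. Of 18 named subunits 6 were lower and 2 were higher DEGs in KM rats, the median log2-fold change was −0.42, and 15 of the 18 had a negative value. Cacng4 (ENSRNOG00000003262), a regulatory protein of AMPA receptors named as a calcium channel subunit, had 80.4, 82.9 and 79.5 CPM in KM and 105, 113, 155 and 115 CPM in “0” rats with a narrow KM group and a log2-fold change of −0.59 (SE 0.16, unadjusted p = 0.00548). The acid-sensing channels Asic2 (18.5, 20.5 and 21.2 CPM in KM and 30.9, 26.6, 29.9 and 26.99 CPM in “0” rats) and Asic1 (89.1, 122 and 122 CPM in KM and 147, 142, 158 and 152 CPM in “0” rats) were both lower, with log2-fold changes of −0.51 (SE 0.15, unadjusted p = 0.00682) and −0.43 (SE 0.15, unadjusted p = 0.0194), and in neither did the strains overlap. The other lower DEGs were Scn4a (−1.16 ± 0.31), a sodium channel best known from muscle, the fast potassium channel Kcnc4 (−0.42 ± 0.16) and Kcnj16, given above. Kcne5 (ENSRNOG00000019176), a potassium channel accessory protein, was higher with 14.1, 10.7 and 10.6 CPM in KM and 4.597, 6.26, 6.098 and 7.34 CPM in “0” rats, a log2-fold change of 0.95 (SE 0.23, unadjusted p = 0.00219). Kcne2, the other higher gene, belongs to the choroid plexus list and was highest in KM 3. Asic2, Cacng4, Scn4a, Kcne5 and Kcne2 were DEGs without any single rat, and the number of lower DEGs was 3 without KM 1.

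Few transmitter genes had a symbol. Slc6a5, the glycine transporter of inhibitory nerve endings, was higher with 134, 48.7 and 25.8 CPM in KM and 19.8, 14.4, 31.2 and 32.4 CPM in “0” rats. KM 1 was far above all other rats, KM 3 lay among the “0” rats, and without KM 1 the log2-fold change of 1.51 was 0.61 (unadjusted p = 0.137). Gabrr2, a GABA receptor subunit, was lower with 0.914, 0.431 and 0.826 CPM in KM and 0.555, 3.76, 6.87 and 1.83 CPM in “0” rats, and “0” 1 lay among the KM rats (−2.11 ± 0.76). Gabrr2 was not a DEG without KM 2 or “0” 3. Gabbr1, a subunit of the GABA B receptor and the most abundant of the list, had 1400.0, 1532 and 1556 CPM in KM and 1711, 1721, 2229.7 and 2108 CPM in “0” rats. The strains did not overlap for Gabbr1, but its unadjusted p of 0.0505 did not pass (log2-fold change −0.38). Of 5 genes for glutamate transmission 1, Cacng4, was a DEG, and Dlg4, the postsynaptic scaffold and the most abundant, had a log2-fold change of −0.01 (unadjusted p = 0.936). Among 5 receptors for amines and acetylcholine, the alpha 1B adrenoceptor Adra1b had 3.99, 7.499 and 7.78 CPM in KM and 8.32, 10.6, 16.7 and 17.1 CPM in “0” rats (−1.03 ± 0.34). The serotonin receptor Htr3a was also lower (−0.85 ± 0.36) but was not a DEG without KM 1, KM 2, KM 3, “0” 3 or “0” 4, Chrm1 is described above with KM 1, and the nicotinic subunit Chrnb2, the most abundant, had a log2-fold change of −0.19 (unadjusted p = 0.274). Of the 10 named genes that cause human epilepsies when mutated, 3 were DEGs. Among them were the citrate transporter Slc13a5 (−0.74 ± 0.27) and Kctd7 (0.64 ± 0.26), and both lost their call without KM 1 or “0” 3. Without KM 1 none of the 10 was a DEG.

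In the dopamine list of 7, Lmx1a and Nr4a2 were among the 3 higher DEGs, and Maob and the D5 receptor Drd5 (−1.21 ± 0.54) were lower. Neither Maob nor Drd5 was a DEG without KM 1, KM 2, KM 3 or “0” 2, whereas Lmx1a and Nr4a2 were DEGs without any single rat. Of 12 genes that respond to glucocorticoids 3 were higher DEGs and 2 were lower. Sgk1, a kinase induced by corticosterone, had 48.5, 36.2 and 61.6 CPM in KM and 30.1, 29.9, 20.1 and 22.2 CPM in “0” rats with no overlap, a log2-fold change of 0.93 (SE 0.22, unadjusted p = 0.00242). Tsc22d3 (GILZ), the most abundant of the list, had 90.8, 77.7 and 110.5 CPM in KM and 67.8, 65.3, 52.1 and 73.3 CPM in “0” rats and a log2-fold change of 0.52 (SE 0.17, unadjusted p = 0.0136), and Sgk3 had a log2-fold change of 0.71 (unadjusted p = 0.0267). Both were highest in KM 3 and were not DEGs without it. Mt1, a metallothionein, was lower (−0.66 ± 0.28, not a DEG without KM 2, KM 3, “0” 2, “0” 3 or “0” 4), as was Sult1a1, a sulfotransferase of phenols, with 4.904, 5.78 and 7.84 CPM in KM and 15.1, 19.9, 19.4 and 14.1 CPM in “0” rats and a log2-fold change of −1.46 (SE 0.24, unadjusted p = 0.000148).

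DNA repair genes held DEGs of both signs. Beside Msh3, the genes lower in KM rats were Mgmt (ENSRNOG00000016038), which takes methyl groups off guanine, Bccip and Babam1, partners of the BRCA proteins. Mgmt had 2.91, 5.26 and 6.55 CPM in KM and 12.4, 11.5, 17.4 and 16.8 CPM in “0” rats, a log2-fold change of −1.56 (SE 0.30, unadjusted p = 0.000592), and KM 1 was the lowest rat. Bccip had a log2-fold change of −0.47 (unadjusted p = 0.0105), and Babam1, the most abundant of the list, had a log2-fold change of −0.42 (unadjusted p = 0.017). The higher DEGs were Slf1 (0.94 ± 0.30), the helicase Wrn (0.87 ± 0.28), Parg (0.84 ± 0.36), Rbbp8 (0.62 ± 0.26), Smc5 (0.61 ± 0.20), Hltf (0.55 ± 0.21) and the thymine glycosylase Tdg (0.49 ± 0.22). Slf1 brings the complex that contains Smc5 to damaged DNA. Of 17 genes 7 were higher and 4 lower, with a median of 0.51. The 7 higher DEGs became 1 without KM 1, 4 without KM 2 and 3 without “0” 3, whereas Msh3, Mgmt and Bccip were DEGs without any single rat.

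Fatty acid genes were divided evenly, with 4 higher and 4 lower DEGs of 18 and a median of 0.07. With Acsm5 and Ucp3, the lower genes were the thioesterase Acot11 (−0.81 ± 0.28) and the fatty acid transporter Slc27a1 (−0.45 ± 0.19). Higher were Thrsp, a regulator of lipid synthesis, with 89.3, 76.9 and 88.4 CPM in KM and 37.7, 37.6, 55.3 and 70.1 CPM in “0” rats (log2-fold change 0.76, SE 0.23, unadjusted p = 0.00893), Far1, which makes the fatty alcohols of ether lipids (0.61 ± 0.19), Elovl7, given above, and Lpin2 (0.38 ± 0.16). Elovl7, Far1, Thrsp and Acsm5 were DEGs without any single rat, and the lower DEGs were 2 without KM 2 or “0” 4. Acsbg1, the most abundant, had a log2-fold change of −0.29 (unadjusted p = 0.067). Among 9 retinoid genes, Rdh5 (ENSRNOG00000053850) had 1.99, 2.41 and 1.77 CPM in KM and 10.9, 7.52, 5.65 and 6.42 CPM in “0” rats, a log2-fold change of −1.89 (SE 0.31, unadjusted p = 0.000151), and the retinoic acid hydroxylase Cyp26b1 was lower as well (−0.50 ± 0.17, not a DEG without KM 3). Ttr and Stra6, the 2 higher genes of that list, are choroid plexus markers described above with KM 3.

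Of 16 genes for glutathione, conjugation and antioxidant defence 6 were lower and 5 higher DEGs (median −0.25). Slc7a11, which brings in cystine for glutathione, had 24.9, 23.96 and 23.5 CPM in KM and 32.97, 51.1, 35.8 and 32.9 CPM in “0” rats (log2-fold change −0.66, SE 0.19, unadjusted p = 0.00696), and Akr1b1, aldose reductase, had 51.4, 55.7 and 62.7 CPM in KM and 79.97, 71.2, 87.3 and 82.7 CPM in “0” rats (log2-fold change −0.50, SE 0.14, unadjusted p = 0.00565), both without overlap. Gstm1 (−0.48 ± 0.19), Gpx7 (−0.74 ± 0.25), Mt1 and Sult1a1 were the other lower genes. Glutathione reductase Gsr (0.45 ± 0.18), catalase Cat (0.43 ± 0.19), Pon2 (0.43 ± 0.16), Pir (0.46 ± 0.20) and Xdh (0.42 ± 0.18) were higher, and the 5 of them were 1 to 3 DEGs in the fits without a rat. Akr1b1, Slc7a11 and Sult1a1 were DEGs in all of those fits, and Prdx6, the most abundant, had a log2-fold change of −0.27 (unadjusted p = 0.211).

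Of 27 cytosolic ribosomal protein genes 26 had a negative log2-fold change, with a median of −0.31, but only Rpl17 was a lower DEG. Their summed level was 3820.5, 4215 and 2998 CPM in KM and 5162, 4248, 6176 and 3105 CPM in “0” rats, so the strains overlapped, and KM 3 and “0” 4, the rats with the lowest share of reads in the 10 most abundant genes, were the lowest. Without “0” 4 the number of lower DEGs was 10. Rpl17 (ENSRNOG00000018680), a protein of the large subunit, had 126, 143 and 63.5 CPM in KM and 389, 289, 382 and 178 CPM in “0” rats and a log2-fold change of −1.48 (SE 0.34, unadjusted p = 0.00192), with no overlap and a DEG in every fit without a rat. Rpl17 belongs to the family for which the L22 domain of RGD1359290 is named, and ribosomal genes have many processed copies, so the division of reads between copies is uncertain for both. Rps4y2 was higher (0.52 ± 0.20, not a DEG without KM 1, KM 2, “0” 1, “0” 2 or “0” 3), and Rps16, the most abundant, had a log2-fold change of −0.37 (unadjusted p = 0.0903).

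Among 27 zinc finger genes 4 were higher and 5 lower DEGs (median −0.11), and Zfp810, the most abundant, had a log2-fold change of −0.06 (unadjusted p = 0.786). Zfp518a had 5.49, 6.29 and 6.49 CPM in KM and 3.17, 4.91, 2.66 and 1.97 CPM in “0” rats, a log2-fold change of 0.94 (SE 0.32, unadjusted p = 0.0159), and it and Zfp488 were DEGs without any single rat. The other higher ones were Zfp40 (0.87 ± 0.33), Zfp280d (0.62 ± 0.27) and Zfp329 (0.47 ± 0.18), and the other lower ones Zfp575 (−0.81 ± 0.30), Zkscan2 (−0.68 ± 0.30), Zfp423 (−0.39 ± 0.16) and Zfp687 (−0.35 ± 0.15). The higher DEGs numbered 2, 1 and 2 without KM 1, KM 2 and KM 3, and 2, 5, 2 and 3 without “0” 1, “0” 2, “0” 3 and “0” 4. The lower ones numbered 1, 1 and 2 without KM 1, KM 2 and KM 3, and 4, 6, 1 and 4 without “0” 1, “0” 2, “0” 3 and “0” 4. Of 40 solute carriers 7 were higher and 7 lower (median 0.03). Among those not yet named were the iron exporter Slc40a1 with 1.496, 1.98 and 2.24 CPM in KM and 3.25, 3.57, 3.104 and 3.73 CPM in “0” rats (log2-fold change −0.83, SE 0.27, unadjusted p = 0.0136), Slc35f2 (−0.56 ± 0.24) and Slc25a14 (−0.44 ± 0.19), which were lower, and the sodium-calcium exchangers Slc24a2 (0.63 ± 0.24) and Slc24a4 (0.85 ± 0.29), which were higher. The higher carriers numbered 2, 8 and 4 without KM 1, KM 2 and KM 3, and 4, 5, 5 and 5 without “0” 1, “0” 2, “0” 3 and “0” 4. The lower ones numbered 2, 3 and 3 without KM 1, KM 2 and KM 3, and 7, 6, 4 and 5 without “0” 1, “0” 2, “0” 3 and “0” 4.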

How the data were processed

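RNA of the IC + SC was enriched for poly(A), made into strand-specific libraries and sequenced as single-end reads, 1 library per rat. The authors trimmed the reads with Trimmomatic, aligned them with STAR to the Rnor_6.0 build and deposited raw read counts per Ensembl gene from HTSeq (tool and build names are in the submitters' processing notes, versions not given in the sources used here). The strand setting of the counting is not given there either, so overlapping and antisense genes are uncertain. Reads on no gene (17.4 to 22.7% per library) were left out of the totals. The genes were matched to symbols in the authors' list of differing genes, the fold changes and p-values of which were not used, and no column of another series was used. The 7 rats were fitted in edgeR 4.0.16 (R 4.3.3) with TMM factors and the original quasi-likelihood test, without covariates, over genes with a mean of at least 1 CPM, and p-values were adjusted by Benjamini-Hochberg. In simulated counts for this comparison 200 of 13686 genes were changed 4-fold, and 13566 genes were tested. Of the changed genes that were tested, 99.0% had an unadjusted p under 0.05 and 88.3% an adjusted p under 0.05. Counts were drawn for each gene separately and changes smaller than 4-fold were not simulated. These shares therefore do not apply to smaller changes, such as the median changes of the DEGs. Genes left unchanged had an unadjusted p under 0.05 in 4.80% of cases and no overlap of the strains in 5.83%. The members, lists and tests were chosen with earlier results of these data known. Genes named are the 15 with the smallest p in each direction among DEGs with a symbol and no overlap of the strains, the DEGs of each list, the most abundant gene of each list, and genes the authors also measured by PCR, and a few genes that this selection takes in are counted in their lists but not reported here. Alternatives were DESeq2 1.42.0 (its size factors and its Wald test), a newer quasi-likelihood method, other filters, a stricter p, all 11 rats in 1 fit, a replicate block and leaving out each rat.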

Additional observations from a re-analysis of the deposited data

Results flagged for a closer look

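Among the 186 genes named, the 4 “0” rats were examined for a rat far from the other 3. The measure was its gap to the nearest of them over the whole range, both taken on a log scale of CPM. It was compared with Dixon's critical value at 95%. In 8 genes that value was passed. Chance passes it in about 1 of 20 groups of unselected genes, or about 9.3 of 186, but 167 of the 186 were chosen as DEGs, so that rate need not hold here and the number is given as a description. In “0” 2, Irf7 had 6.46 CPM against 4.77 to 4.91 CPM in the others (gap over range 0.9), Slfn5 had 18.0 CPM against 10.3 to 11.02 CPM (0.878), Irgm had 5.30 CPM against 3.65 to 3.73 CPM (0.937), and Slc24a2 had 192.5 CPM against 124 to 129 CPM (0.908). In “0” 1, Lgals3bp was low with 14.7 CPM against 21.6 to 22.7 CPM (0.882), Pou4f1 was low with 0.238 CPM against 1.73 to 2.10 CPM (0.899), Slc35f2 was high with 8.88 CPM against 6.03 to 6.21 CPM (0.923), and AABR07053166.1 was the only one with any count, 0.238 CPM against 0 in the others, which by construction gives a gap over range of 1. The KM rats, a group of 3, were not examined in this way.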

How the results depend on the processing

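The 324 higher DEGs became 520 with no filter on low counts, 532 with the replicate block and 73 at p under 0.01. The 176 lower DEGs became 273 with all 11 rats in 1 fit and 35 at p under 0.01. The 2 genes with an adjusted p under 0.05 became 40 with the DESeq2 Wald test, 7 with no filter, 4 with all 11 rats and 0 with the share of reads in the 10 most abundant genes as a covariate, an alternative chosen after seeing the data. The 14 choroid plexus DEGs higher in KM rats became 5 with the DESeq2 Wald test and 5 with that covariate. Genes that got no p from the DESeq2 Wald test were counted as not DEGs. Leaving out 1 rat gave 190 to 613 higher and 90 to 331 lower DEGs, 0 to 5 genes with an adjusted p under 0.05, 824 to 1992 genes without overlap of the strains (631 with all 7 rats), 11 to 21 interferon, 6 to 16 choroid plexus and 4 to 8 oligodendrocyte genes higher, and 3 to 8 astrocyte genes lower. Fewer rats can only raise the number without overlap for the genes tested.

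The deviations of rats with the same replicate number correlated at 0.0577, 0.0674 and 0.236. KM 2 correlated best with “0” 1 (0.3945) and KM 3 with “0” 3, while KM 1 correlated about equally with “0” 1 and “0” 2 (0.0577 and 0.0579). Whether the replicate numbers pair the rats cannot be decided from these values. With the replicate block there were 249 lower DEGs, 3 genes with an adjusted p under 0.05, and 16 interferon, 11 choroid plexus and 7 oligodendrocyte genes higher and 6 astrocyte genes lower. Of the 167 DEGs named, 45 had a p of 0.05 or more under the block, 51 with the covariate, 13 with the DESeq2 Wald test and 34 to 65 without 1 rat. With the DESeq2 Wald test 144 kept p under 0.05, and the remaining named DEGs got no p.

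Of the named DEGs, 5 changed sign when a rat was left out. Without KM 1 the log2-fold changes of Ddn, Icam5 and Wipf3 were −0.253, −0.109 and −0.024 (ranges −0.253 to 3.43, −0.109 to 2.91 and −0.024 to 1.95 over the 7 rats left out), and without KM 3 those of Folr1 and Col8a2 were −0.601 and −0.047 (−0.601 to 2.67 and −0.047 to 2.09). Named genes that were not DEGs and changed sign were Dlg4 (0.024 with the covariate, −0.165 to 0.071 with a rat left out), Nrgn (0.090 with the block, −0.247 to 0.119), Zfp810 (0.052 with the covariate, −0.231 to 0.077), Egr1 (−0.534 to 0.152), Flt1 (−0.041 to 0.067), Pomc (−0.262 to 2.18) and RT1-A1 (−0.0079 to 0.127). The cause of these changes was not tested. With 3 and 4 rats the number of animals limits the precision, and genes near 1 CPM rest on few counts.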

Other observations

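Of the 500 DEGs 50 carried an Ensembl identifier with no symbol in the table used, 44 higher and 6 lower in KM rats. Among the 44, the highest KM rat was KM 3 for 24, KM 1 for 18 and KM 2 for 2.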
